A study of Mus musculus with 16 samples.

Results

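The methionine cycle and transsulfuration enzymes described here are 10 genes, chosen by symbol from the 24421 genes counted in RNA-seq libraries of mouse embryonic heads: Mat1a, Mat2a, Mat2b, Ahcy, Ahcyl1, Ahcyl2, Cbs, Cth, Bhmt and Gnmt. All 10 were listed in every library, and 8 passed the filter on low counts (10 or more counts in 4 or more libraries). Mat1a and Bhmt did not pass it. Averaged over 2 folic acid diets, Ahcyl1, Cth, Cbs and Mat2b were higher and Mat2a was lower in embryos without Ift88 than in wild type embryos, while no member passed the test between the diets.

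Methionine adenosyltransferases make S-adenosylmethionine, the methyl donor of most cellular methylation, from methionine and ATP. Each methyl transfer leaves S-adenosylhomocysteine, an inhibitor of methyltransferases, which S-adenosylhomocysteine hydrolase splits into adenosine and homocysteine. Homocysteine is then either methylated back to methionine, with a methyl group from folate (by methionine synthase) or from betaine (by Bhmt), or passed by Cbs and Cth through transsulfuration to cysteine, a building block of glutathione. This is where dietary folate meets methylation, and folate supply is closely tied to closure of the embryonic neural tube.

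The embryos were F3 mice at embryonic day 8.5, from a colony kept on a diet with 2 ppm (moderate) or 10 ppm (enriched) folic acid for 3 generations. The tissue was the head, between the level of the otic vesicle and the first branchial arch. Wild type embryos and embryos homozygous for a null allele of Ift88, a subunit of the transport machinery that builds cilia, were compared on each diet, with 4 libraries in each of the 4 groups. The labels name no strain, litter or parental genotype, so embryos of 1 litter cannot be told from embryos of several, and the tests here take in no more than the spread from library to library.

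Total counts were 19249433 to 44267434 per library. Ift88 stood at 17.9 to 20.9 CPM (counts scaled to library size) in 7 of the 8 wild type libraries and at 2.01 to 8.61 CPM in the 8 mutant libraries. Moderate wild type replicate 2 was between these, at 9.30 CPM, near the highest mutant, enriched mutant replicate 2, at 8.61 CPM. Ift88 alone does not settle the label of this wild type library, which was kept as given. Its hypoxia and amino acid response sums, described further on, were 4859 and 1191 CPM, within the ranges of the other wild type libraries. Mutant hypoxia sums were 7494 CPM or more, while the amino acid response sum of moderate mutant replicate 3 was inside the wild type range. In 3 libraries (moderate wild type replicate 2 and moderate mutant replicates 1 and 2) sex-linked counts went against the labelled sex. Moderate mutant replicate 3 stood apart from the other mutants in the amino acid response genes described further on. In enriched mutant replicate 3 the 6 decidua and placenta markers summed to 189.7 CPM, against at most 4.45 CPM in the wild type libraries. Nearly all of this was 1 gene, Prl8a2, at 188.6 CPM. No other marker of that list was above 1.13 CPM in any enriched mutant library. Results were therefore also computed without the 3 libraries of contradicted sex, and without moderate wild type replicate 2, moderate mutant replicate 3 and enriched mutant replicate 3. The 6 genes taken as markers of neural progenitors of the head summed to 874.5 to 1084 CPM in every library. Nes and Sox2 made up the largest parts, with Otx2 at 126 to 191 CPM and Six3 at 39.5 to 69.3 CPM. No trunk markers were compared, so the sum does not settle head identity by itself. The genes that define liver, the organ in which Mat1a, Bhmt and Gnmt are best known, summed to at most 0.136 CPM, and Tat was at 0 throughout.

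The members spanned a wide range of levels, compared here as CPM per kilobase of transcript. In whole heads, more cells of a type and more RNA per cell cannot be told apart, and this holds for every level and difference given. Over the 16 libraries Mat2a had the highest mean, 109 ± 31.5 (SD, n = 16), followed by Ahcyl1 at 63.4 ± 8.09 and Mat2b at 51.5 ± 6.14. That order did not hold in every library: Mat2a was 2.30 ± 0.17 and 2.39 ± 0.09 times Ahcyl1 in moderate and enriched wild type, 1.42 ± 0.47 times in moderate mutants and 1.04 ± 0.45 times in enriched mutants (SD, n = 4 each). In 2 of the 4 enriched mutant libraries Ahcyl1 was the higher. Ahcyl1 exceeded Mat2b in 16 of 16 libraries, although the ranges of these neighbours overlapped. Next came Cth at 23.5 ± 5.10, Ahcyl2 at 10.3 ± 1.01 and the row named Ahcy at 3.09 ± 0.49. Cbs, at 1.49 ± 0.50 CPM per kilobase, was below Ahcy in 14 of 16 libraries. Gnmt stood at 0.283 ± 0.11 and Bhmt at 0.0186 ± 0.013, and Mat1a, with a count in 1 library only, averaged 0.00112. From Mat2b to Ahcy and from Cbs to Bhmt, no neighbours in this order overlapped.

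**Figure D1:**
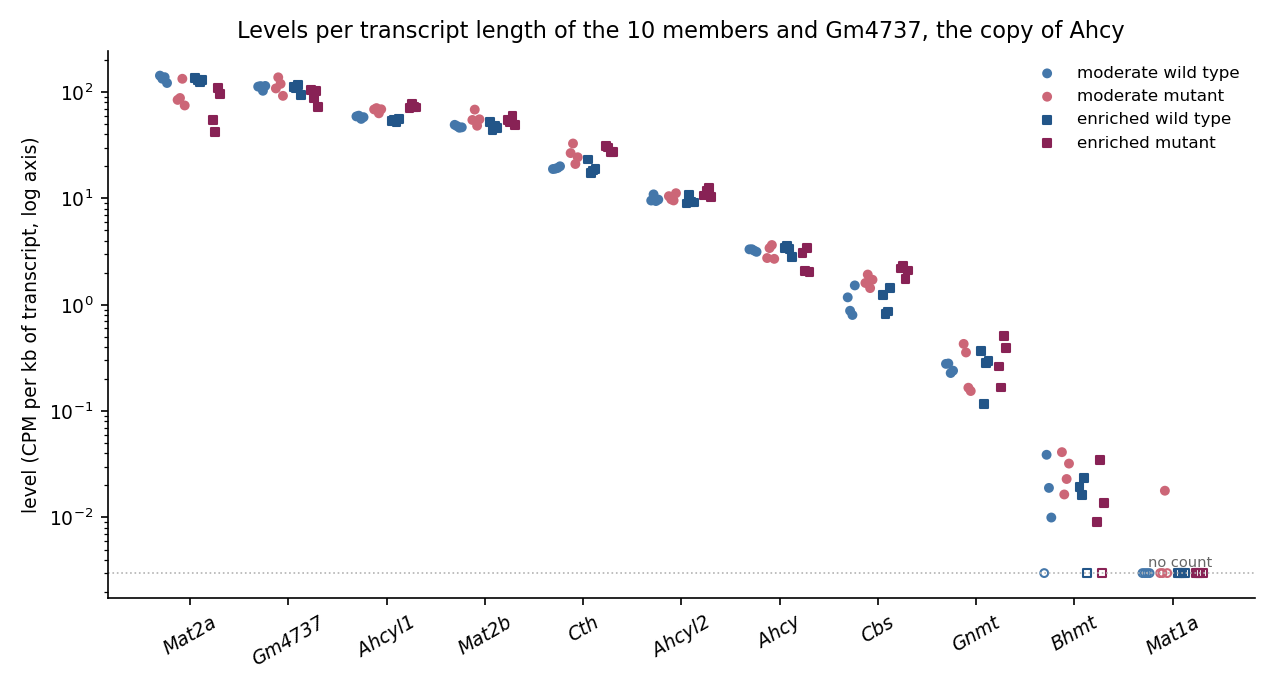
Levels of the 10 members and of Gm4737, the near-identical copy of Ahcy, in CPM per kilobase of transcript on a log axis, by library (circles, moderate diet; squares, enriched diet; blue, wild type; red and purple, mutant). Open symbols on the dotted line are libraries with no count, drawn at an arbitrary height. Mat2a has the highest mean, 109 over the 16 libraries, but is below Ahcyl1 in 2 enriched mutant libraries, and Mat1a, at the bottom, has a count in 1 library.

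Mat2a, Ahcyl1 and Cbs are members on which the comparisons turn, Mat2a lower and the others higher in mutants, and their proximal promoters are shown for that reason. RefSeq promoter windows (GRCm38.p6) were found for 8 of the 10 members, Mat1a and Cth being the others, and gave 12 windows of 250 bases upstream of a start site. Capitals mark matches to GCGTG or ACGTG, the cores to which hypoxia-inducible factors are known to bind, on either strand (CACGC and CACGT are their reverse complements). All 3 genes lie on the minus strand, and the sequences read 5′ to 3′ along the gene.
Mat2a, chr6:72439557-72439806: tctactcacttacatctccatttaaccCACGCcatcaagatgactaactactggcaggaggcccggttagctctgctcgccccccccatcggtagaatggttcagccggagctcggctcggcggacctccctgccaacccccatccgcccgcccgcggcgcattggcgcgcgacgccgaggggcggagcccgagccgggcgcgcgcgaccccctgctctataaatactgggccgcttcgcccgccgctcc
Ahcyl1, chr3:107696561-107696810: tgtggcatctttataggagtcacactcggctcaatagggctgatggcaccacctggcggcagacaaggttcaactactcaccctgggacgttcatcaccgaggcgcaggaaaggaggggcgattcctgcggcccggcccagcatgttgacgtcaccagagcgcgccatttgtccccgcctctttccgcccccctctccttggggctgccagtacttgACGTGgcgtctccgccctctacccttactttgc
Cbs, chr17:31637206-31637455: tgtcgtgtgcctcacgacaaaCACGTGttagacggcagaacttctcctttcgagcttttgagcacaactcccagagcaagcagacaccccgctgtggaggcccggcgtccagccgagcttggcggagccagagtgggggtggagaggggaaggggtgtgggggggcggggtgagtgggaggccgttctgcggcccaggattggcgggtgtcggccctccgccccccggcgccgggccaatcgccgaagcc
The Mat2a window held 1 GCGTG match, on the opposite strand, beginning 223 bases upstream of the start. The first start site of Ahcyl1 had 1 ACGTG, 33 bases upstream. In Cbs, ACGTG matched both strands at 228 and 229 bases upstream, the 2 matches overlapping in the palindrome CACGTG. Over all members, ACGTG was in 3 of 12 windows and GCGTG in 6, against 16.6% and 28.2% of 32851 promoter windows of the same length. Either core was in 38.6% of those windows. No window of the members held both cores, so the 3 and the 6 are different windows. Ahcyl1 and Ahcyl2 gave 3 of the 12 windows each. The matches were not particular to the 3 genes shown: Mat2b, Ahcy, Ahcyl2 and Gnmt had GCGTG too, and Ahcyl2 had ACGTG. The second start site of Ahcyl1, not shown, had GCGTG as well. TGATGNAA, the composite element known to be bound by ATF4, the transcription factor of the amino acid response, was in 0 of the 12 windows and in 3.45% of all windows. A match here describes letters in a window and is not a measured binding site.

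Mat2a encodes the catalytic subunit of the methionine adenosyltransferase used outside the liver, and its gene (chr6:72432799-72439558, minus strand) overlaps the noncoding gene Particl on the other strand. In wild type heads it stood at 401, 375, 388 and 342 CPM on the moderate diet (376 ± 25.4, SD, n = 4) and at 378, 362, 347 and 366 CPM on the enriched diet (363 ± 12.7). In the mutants it stood at 237, 247, 375 and 210.2 CPM on the moderate diet (267 ± 73.2) and at 154, 119, 306 and 269 CPM on the enriched diet (212 ± 89.5). All 4 enriched mutant libraries were thus below all wild type libraries, as were 3 of the 4 moderate ones, and moderate mutant replicate 3 sat inside the wild type range. On the enriched diet Mat2a fell by 0.81 ± 0.24 on the log2 scale (adjusted p = 0.0170, from the quasi-likelihood test of edgeR), or by 42.9%. This call was lost without enriched mutant replicate 2, the lowest library (-0.55, adjusted p = 0.0713). On the moderate diet the log2 difference of -0.50 ± 0.23 did not pass (adjusted p = 0.201), nor did it without moderate mutant replicate 3 (-0.69 ± 0.23, adjusted p = 0.0566). Averaged over the diets Mat2a fell by 0.65 ± 0.16 (adjusted p = 0.00620), a call lost without the 3 libraries of contradicted sex (-0.59 ± 0.22, adjusted p = 0.0671).

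The spread of Mat2a among libraries is given as the SD in percent of the mean. It was 6.74% and 3.49% in the wild type groups and 27.4% and 42.2% in the mutant groups. Without moderate mutant replicate 3 the moderate mutant value was 8.25%, near that of wild type. A larger spread in mutants was not particular to Mat2a. The Ahcy row had 2.63% and 10.4% in moderate and enriched wild type, and 15.1% and 25.96% in mutants. Mat2b had 2.86% and 7.34%, and 14.9% and 7.93%, in the same order. Gnmt, at low counts, had 10.3% and 40.2%, and 49.7% and 45.2%. Cth rose from 2.66% to 18.9% on the moderate diet but fell from 13.6% to 6.34% on the enriched diet. Ahcyl1, measured in the same libraries, had an SD of 2.98% to 4.81% of the mean in every group. Ahcyl2 had 6.84% to 9.13%. Cbs went the other way, with 29.9% and 26.9% in wild type and 12.3% and 12.1% in mutants. Reads of Mat2a and Particl cannot be told apart without strand. Particl was counted at 26 to 134 reads per library, or 0.311% to 2.54% of the Mat2a count.

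Mat2b (chr11:40679314-40695203, minus strand) encodes the regulatory subunit that pairs with the Mat2a product, and its estimates had the opposite sign. It stood at 96.1, 93.4, 90.2 and 91.0 CPM in moderate wild type, 107, 134, 94.2 and 108 CPM in moderate mutants, 102, 86.2, 94.7 and 90.2 CPM in enriched wild type and 106, 102, 116 and 96.2 CPM in enriched mutants. Of the 8 mutant libraries, 6 were above every wild type library and 2 were inside the wild type range. Mat2b rose by 0.21 ± 0.07 averaged over the diets (adjusted p = 0.0214), but not without the 3 libraries of contradicted sex (0.14 ± 0.07, adjusted p = 0.159). Neither diet alone passed the test, the difference being 0.26 ± 0.09 on the moderate diet (adjusted p = 0.0983) and the enriched one 0.16 ± 0.09 (adjusted p = 0.202). Without moderate mutant replicate 3 the moderate difference was 0.34 ± 0.08 and passed (adjusted p = 0.0140).

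The level of Mat2a over that of Mat2b, both per kilobase, was 2.82 ± 0.16 in moderate wild type and 2.72 ± 0.18 in enriched wild type heads (SD, n = 4 each), with all 8 libraries between 2.55 and 2.99. It was 1.74 ± 0.69 in moderate and 1.40 ± 0.57 in enriched mutants. All mutant libraries lay between 0.809 and 1.94 except moderate mutant replicate 3, at 2.76. In enriched mutant replicate 2 the catalytic subunit was the lower of the pair. Mat1a (chr14:41105035-41124412, plus strand), the liver form of the catalytic subunit, had 2 counts in the series, both in moderate mutant replicate 3. Its 0 counts in the other 3 groups allow up to 0.0292, 0.0270 and 0.0263 CPM in moderate wild type, enriched wild type and enriched mutant heads, counting error only (3 counts over the group).

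**Figure D2:**
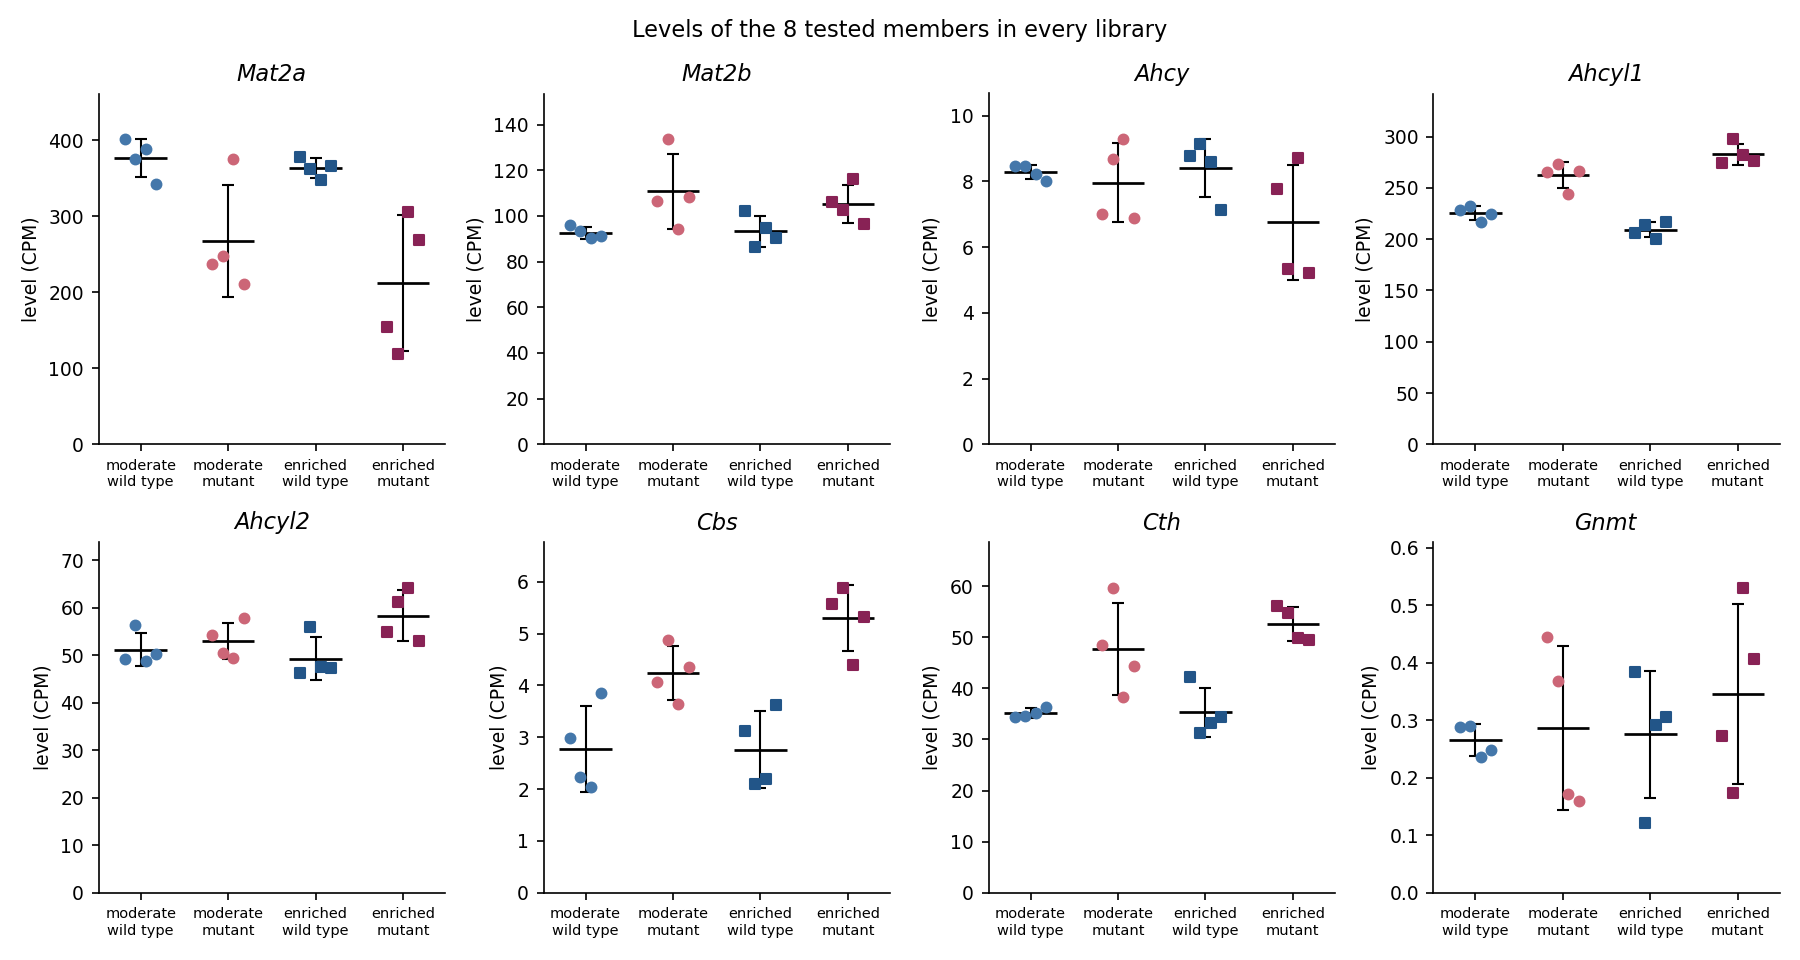
CPM of the 8 tested members by library (points, replicates 1 to 4 from left to right), with the group mean and SD (bar and whiskers, n = 4), on axes that start at 0. All 8 mutant libraries are above all wild type libraries for Ahcyl1, and 7 of 8 are for Cbs and Cth. Mat2a is below the wild type range in 7 of 8 mutant libraries, with moderate mutant replicate 3 inside it at 375 CPM.

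The hydrolysis step could not be read from the Ahcy row alone. Ahcy (chr2:155059310-155074497, minus strand) has 10 exons and a transcript of 2543 bases, and the annotation (GENCODE vM21) lists a 1-exon copy of it, Gm4737 (chr16:46152985-46155077, minus strand), as protein coding. Over 2086 aligned bases the 2 transcripts differ at 7, of which 4 lie in the coding sequence, an identity of 99.7%. A coding stretch of 150 bases with 2 of the differences, in capitals, is shown because it makes plain how little there is to tell the genes apart.
Ahcy, exon 9, chr2:155062183-155062332: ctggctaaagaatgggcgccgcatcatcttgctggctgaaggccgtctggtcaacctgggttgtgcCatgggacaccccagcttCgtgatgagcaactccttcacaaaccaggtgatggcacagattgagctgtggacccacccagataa
Gm4737, exon 1, chr16:46153880-46154029: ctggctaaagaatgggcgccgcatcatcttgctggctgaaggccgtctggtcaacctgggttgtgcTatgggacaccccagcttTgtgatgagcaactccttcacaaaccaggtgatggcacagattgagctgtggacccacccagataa
Counted from the first base of the Ahcy transcript these are C1155T and C1173T, the Ahcy base first. A read without such a base, or a base of the 457 that lie outside the alignment, fits both genes. In the deposited counts Gm4737 held 151 to 288 CPM and Ahcy 5.22 to 9.28 CPM, so that the Ahcy row was 2.80% to 3.90% of their sum (mean 3.41% ± 0.31, SD, n = 16). Per kilobase Gm4737 stood at 106 ± 15.0, beside the mean of Mat2a. How the counting divided the reads was not tested, and neither row is a measure of Ahcy by itself. Multiple alignments were tallied apart from the genes, at 77.2 to 94.9 per 100 assigned reads. Reads that fit both genes may thus be in neither row, and the sum of the 2 rows may miss them too.

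The Ahcy row stood at 8.45, 8.47, 8.22 and 8.01 CPM in moderate wild type, 7.00, 8.69, 9.28 and 6.88 CPM in moderate mutants, 8.77, 9.13, 8.59 and 7.14 CPM in enriched wild type and 7.77, 5.32, 8.70 and 5.22 CPM in enriched mutants. The groups overlapped on both diets. The row fell by 0.41 ± 0.14 in enriched mutants (adjusted p = 0.0325), and its moderate difference was -0.06 ± 0.13 (adjusted p = 0.832). Averaged over the diets the difference was -0.24 ± 0.10 and did not pass (adjusted p = 0.0645). The summed level of Ahcy and Gm4737 was 241 ± 11.3 CPM in moderate wild type, 248 ± 41.0 in moderate mutant, 234 ± 21.7 in enriched wild type and 199 ± 32.7 in enriched mutant heads. On this sum the enriched difference was -0.27 ± 0.11 and did not pass (adjusted p = 0.0767). The call on the Ahcy row was lost in 13 of 29 alternative analyses, with an adjusted p of up to 0.129 when 1 library was left out (enriched mutant replicate 2).

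**Figure D3:**
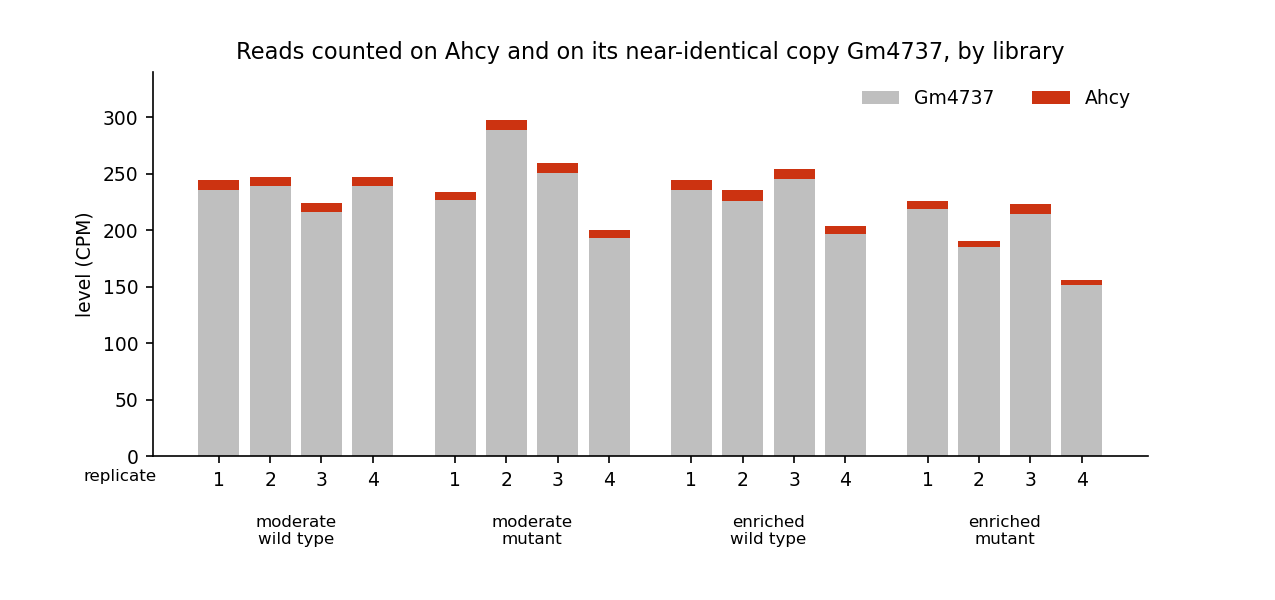
CPM counted on Gm4737 (grey) and on Ahcy (red), stacked, for each of the 16 libraries, on an axis that starts at 0. The red part is 2.80% to 3.90% of each bar, and the summed bars are lowest, at 156.3 CPM, in enriched mutant replicate 4.

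Ahcyl1 and Ahcyl2 encode relatives of the hydrolase. The Ahcyl1 product, known as IRBIT, binds the inositol trisphosphate receptor and ion transporters and is not known as a working hydrolase. Ahcyl1 (chr3:107663118-107696560, minus strand) stood at 228, 232, 216 and 225 CPM in moderate wild type and 206, 214, 200.3 and 217 CPM in enriched wild type heads. In moderate mutants it stood at 266, 273, 244 and 267 CPM, and in enriched mutants at 274, 298, 282 and 277 CPM. Every mutant library was above every wild type library, the only member for which this held, where 2.51% of all tested genes were higher without overlap. Ahcyl1 rose by 0.22 ± 0.06 on the moderate diet (adjusted p = 0.0261), by 0.43 ± 0.06 on the enriched diet (adjusted p = 0.000178) and by 0.33 ± 0.04 averaged over both, a 1.25-fold difference (adjusted p = 2.8e-05). The moderate call was lost in 8 of 28 alternatives, among them the fit without the 3 libraries of contradicted sex (0.19 ± 0.08, adjusted p = 0.461) and the fits without any 1 of moderate wild type replicates 1, 3 and 4 and moderate mutant replicates 1, 2 and 4 (adjusted p at most 0.0994). The enriched and averaged calls passed in all that were run.

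Ahcyl2 (chr6:29768011-29912310, plus strand), the closest relative of Ahcyl1, stood at 49.3, 56.3, 48.7 and 50.3 CPM in moderate wild type, 54.2, 50.5, 49.4 and 57.8 CPM in moderate mutants, 46.2, 55.9, 47.5 and 47.3 CPM in enriched wild type and 54.8, 61.3, 64.2 and 52.9 CPM in enriched mutants. The groups overlapped on both diets, and 3 of the 8 mutant libraries were above the wild type range. Its difference was 0.05 ± 0.08 on the moderate diet (adjusted p = 0.757) and 0.22 ± 0.08 on the enriched diet, just outside the threshold (adjusted p = 0.0518). That value passed in 18 of 28 alternatives. Averaged over the diets it was 0.14 ± 0.06 (adjusted p = 0.0767). Per kilobase, Ahcyl1 was 5.10 to 7.22 times Ahcyl2 over the 16 libraries.

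Transsulfuration begins with Cbs, which joins homocysteine to serine, and ends with Cth, which splits the product cystathionine to release cysteine. Cbs (chr17:31608894-31637238, minus strand) was low, at 43 to 246 counts per library. It stood at 2.98, 2.23, 2.03 and 3.86 CPM in moderate wild type and 3.12, 2.09, 2.19 and 3.63 CPM in enriched wild type heads, against 4.06, 4.88, 3.64 and 4.36 CPM in moderate mutants and 5.57, 5.88, 4.40 and 5.32 CPM in enriched mutants. The enriched groups did not overlap, while on the moderate diet mutant replicate 3, at 3.64 CPM, was below wild type replicate 4. Cbs rose by 0.95 ± 0.22 on the enriched diet, 1.93-fold (adjusted p = 0.00466). The moderate difference of 0.58 ± 0.22 did not pass (adjusted p = 0.1095), and averaged over the diets Cbs rose by 0.77 ± 0.15 (adjusted p = 0.00126). Without moderate wild type replicate 4 the moderate difference was 0.82 and passed (adjusted p = 0.0412).

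Cth (chr3:157894248-157925077, minus strand) stood at 34.3, 34.6, 35.2 and 36.4 CPM in moderate wild type and 42.3, 31.3, 33.3 and 34.4 CPM in enriched wild type heads. It stood at 48.5, 59.7, 38.3 and 44.3 CPM in moderate mutants and 56.1, 54.7, 49.9 and 49.5 CPM in enriched mutants. Within each diet the genotypes did not overlap. Cth rose by 0.44 ± 0.12 on the moderate diet (adjusted p = 0.0299), by 0.59 ± 0.12 on the enriched diet (adjusted p = 0.00212) and by 0.51 ± 0.08 averaged, 1.43-fold (adjusted p = 0.000258). The moderate call was lost in 8 of 28 alternatives, including the fits without any 1 moderate wild type library or moderate mutant replicate 1 or 2 (adjusted p at most 0.0977) and without the 3 libraries of contradicted sex (0.24 ± 0.13, adjusted p = 0.590).

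Bhmt (chr13:93616675-93637961, minus strand) remethylates homocysteine with betaine, and Gnmt (chr17:46725664-46729168, minus strand) uses S-adenosylmethionine to methylate glycine, a sink for excess methyl groups in liver. Bhmt had 20 counts in the series, 1 to 3 in each of 13 libraries and 0 in the others, too few for a test. Gnmt had 128 counts, 3 to 13 per library, with 0.266 ± 0.03 CPM in moderate wild type, 0.286 ± 0.14 in moderate mutant, 0.275 ± 0.11 in enriched wild type and 0.345 ± 0.16 in enriched mutant heads. Its genotype differences of 0.07 ± 0.43 and 0.40 ± 0.42 on the moderate and enriched diet did not pass (adjusted p = 0.944 and 0.493), and differences of these sizes were not detectable at this depth.

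Counted together, 2 of the 8 tested members passed between genotypes on the moderate diet, both higher, where 7.62% of the 14514 tested genes passed, 4.79% higher and 2.83% lower. On the enriched diet 5 passed, 3 higher and 2 lower, where 31.2% of all genes did, 14.4% higher and 16.8% lower. Of the 2 lower, 1 was the Ahcy row, which is not a measure of Ahcy by itself and lost its call in 13 of 29 alternatives. Averaged over the diets 4 were higher and 1 lower, where 35.8% of all genes passed, 17.4% higher and 18.5% lower. The median log2 difference of the 8 was 0.15 on the moderate and 0.31 on the enriched diet, and that of all tested genes -0.01 on both. Libraries did not overlap between genotypes for 2 members on the moderate diet, both higher (15.6% of all genes did not overlap, 7.06% being lower). On the enriched diet 4 did not overlap, 3 higher and 1 lower (23.7% of all genes, 11.2% higher and 12.5% lower). Over both diets together Ahcyl1 alone did not (4.44% of all genes, 2.51% higher and 1.93% lower). Without the 3 libraries of contradicted sex the counts were 0, 4 and 3 of 8 on the moderate diet, the enriched diet and averaged. Without moderate wild type replicate 2, moderate mutant replicate 3 and enriched mutant replicate 3, the counts were 3, 5 and 7. Enriched mutant replicate 4, which held yolk sac and visceral endoderm markers at 139.6 CPM, was kept in these counts. Without it alone they were 2, 5 and 5, with 4 higher and 1 lower on the enriched diet. Leaving out single libraries gave 0 to 3 on the moderate and 3 to 6 on the enriched diet.

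**Figure D4:**
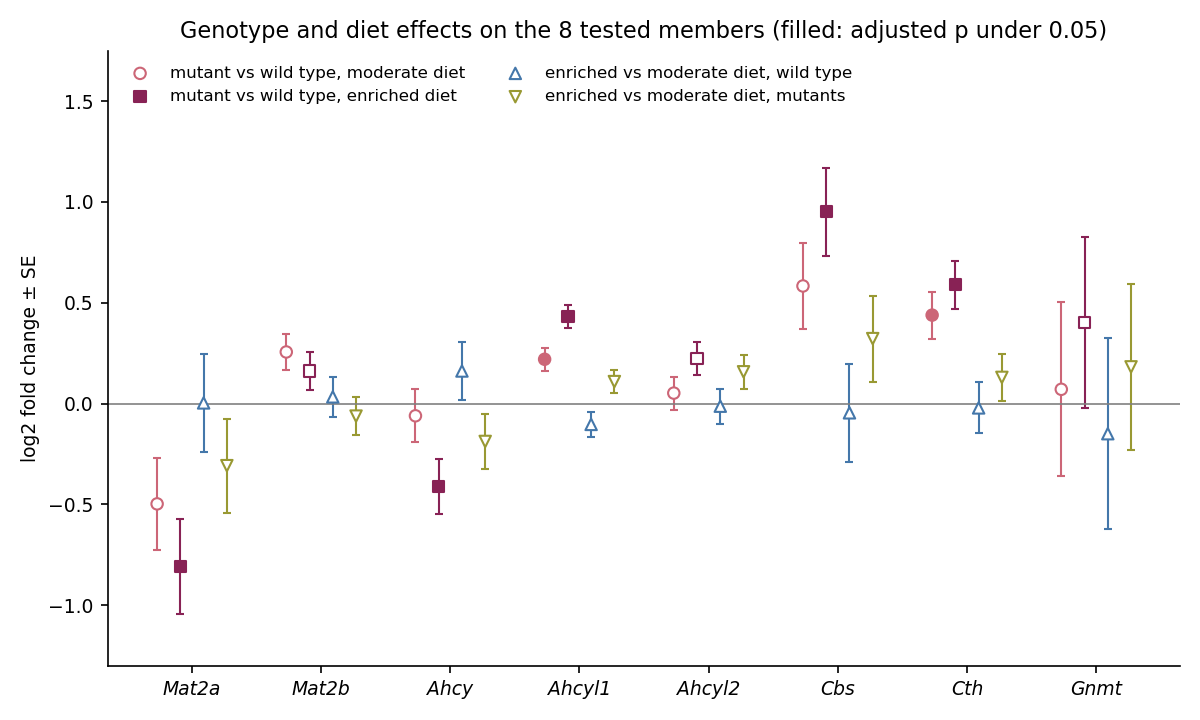
Log2 fold changes with standard errors of the 8 tested members in 4 comparisons, from the edgeR fit to all 16 libraries. Filled symbols have an adjusted p under 0.05. The enriched diet gives 5 filled symbols (1 of them the Ahcy row), the moderate diet 2 (Ahcyl1 and Cth) and the 2 diet comparisons none.

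The diet comparisons ask whether the difference in dietary folic acid went with other levels of these enzymes. In wild type heads 0 of 8 members passed, with estimates from -0.15 ± 0.47 (Gnmt) to 0.16 ± 0.14 (Ahcy). Mat2a differed by 0.00 ± 0.24, Mat2b by 0.03 ± 0.10, Ahcyl1 by -0.10 ± 0.06, Cbs by -0.05 ± 0.24 and Cth by -0.02 ± 0.13. The fit takes 1 spread per gene from all 4 groups, so these standard errors do not measure the wild type spread alone. For Mat2a the SD was 6.74% and 3.49% of the mean in wild type, against 27.4% and 42.2% in mutants. For Cbs wild type had the larger spread. In mutant heads 0 of 8 passed, with Mat2a at -0.31 ± 0.23, Mat2b at -0.06 ± 0.09, Ahcy at -0.19 ± 0.13 and Ahcyl1 at 0.11 ± 0.06. The others were Ahcyl2 at 0.16 ± 0.08, Cbs at 0.32 ± 0.21, Cth at 0.13 ± 0.12 and Gnmt at 0.18 ± 0.41. No member was at an unadjusted p under 0.05 in either comparison by edgeR, and limma-voom and DESeq2 called none of them. The background was the same: edgeR called 0% of the 14514 genes in each, while 354 genes in wild type and 1565 in mutants were under 0.05 unadjusted. DESeq2 called 1 and 3 genes, and limma-voom 0 and 0. In mutants, all 4 enriched libraries of Ahcyl1 were above all 4 moderate ones, which held for 3.20% of all genes (1.46% higher and 1.74% lower), without passing the test (adjusted p = 0.489). In wild type heads 0 members and 2.52% of all genes did not overlap (1.47% higher and 1.05% lower). With both genotypes averaged, 0 of 8 members and 0% of all genes passed in edgeR, with 526 genes under 0.05 unadjusted, and DESeq2 called 1 gene and limma-voom 0.

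The difference between the genotype effects on the 2 diets was tested directly, as the interaction. It passed for 0 of 8 members and for 0% of all genes by edgeR, with 1 member and 1401 genes under 0.05 unadjusted, and DESeq2 and limma-voom called 0 genes. The member was Ahcyl1, whose genotype effect was larger by 0.21 ± 0.08 on the enriched diet (edgeR adjusted p = 0.501). For Mat2a the interaction was -0.31 ± 0.33, for Cbs 0.37 ± 0.31, for Cth 0.15 ± 0.17 and for Ahcy -0.35 ± 0.19. So the larger number of calls on the enriched diet does not show a different effect there.

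The genes around the cycle were taken from lists by function, and each is given by its counts averaged over the diets, where 17.4% of all tested genes rose, 18.5% fell and their median was -0.01. Nothing is read from these counts about a list as a whole. In the folate and methionine synthase arm, 2 of 11 tested genes rose and 0 fell (median 0.02), the share that rose being near that of all genes. These were Abcd4 (0.66 ± 0.09, adjusted p = 6.7e-05) and Lmbrd1 (0.23 ± 0.06, adjusted p = 0.00454), which move vitamin B12, the cofactor of methionine synthase, out of the lysosome. Methionine synthase itself, Mtr, differed by 0.12 ± 0.05 (adjusted p = 0.0621). Of 5 tested genes of betaine, choline and sarcosine metabolism, Aldh7a1, which can oxidise betaine aldehyde, rose (0.18 ± 0.07, adjusted p = 0.0392) and the sarcosine oxidase Pipox fell by 0.44 ± 0.14 (adjusted p = 0.0243).

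Downstream of cysteine, 1 of 10 tested genes rose and 3 fell (median -0.12), where 35.8% of all genes passed. Cdo1, which oxidises cysteine toward taurine, fell by 0.40 ± 0.11 (adjusted p = 0.0102), Ethe1, which oxidises sulfide-derived persulfide, fell by 0.36 ± 0.10 (adjusted p = 0.0135), and the transaminase Got1 rose by 0.22 ± 0.07 (adjusted p = 0.0246). In glutathione metabolism 2 of 13 rose and 4 fell (median -0.01), against the same 35.8%. Chac1, which degrades glutathione and is also in the amino acid response list, rose from 1.32 ± 0.38 and 1.24 ± 0.50 CPM in moderate and enriched wild type to 33.1 ± 22.7 and 41.8 ± 8.39 CPM in the mutants (4.91 ± 0.53, adjusted p = 9.0e-06). Oplah, which recovers glutamate from 5-oxoproline, fell by 0.51 ± 0.11 (adjusted p = 0.00288), and the thioredoxin reductase Txnrd1 by 0.31 ± 0.06 (adjusted p = 0.00127).

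Among users of S-adenosylmethionine, 1 of 26 tested methyltransferases rose and 6 fell (median -0.00139), where 17.4% of all genes rose and 18.5% fell. Dnmt3b, a de novo DNA methyltransferase, fell by 0.42 ± 0.09 (adjusted p = 0.00167), Icmt, which methylates prenylated proteins, by 0.28 ± 0.05 (adjusted p = 0.000584) and the histamine methyltransferase Hnmt by 0.82 ± 0.18 (adjusted p = 0.00271). Mettl16, which methylates hairpins in the Mat2a transcript and is known to promote its splicing, fell by 0.17 ± 0.06 (adjusted p = 0.0339). Mtr and Mettl16 are outside the rule for named genes and were added after their values were seen. In the polyamine and methionine salvage list 2 of 11 rose and 4 fell (median -0.15, all genes -0.01), with the spermidine/spermine acetyltransferase Sat1 higher (0.37 ± 0.11, adjusted p = 0.0155) and the ornithine decarboxylase regulators Azin1 (by 0.30 ± 0.06, adjusted p = 0.00116) and Oaz2 (by 0.24 ± 0.06, adjusted p = 0.00526) falling. Slc25a26, the mitochondrial carrier of S-adenosylmethionine, was the 1 gene of 6 to fall in its list (by 0.22 ± 0.08, adjusted p = 0.0426), with none rising.

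Methionine enters cells through amino acid transporters, of which 2 of 8 rose and 1 fell (median 0.10), near the 35.8% of all genes that passed. Slc7a5 and Slc3a2, the light and heavy chain of the exchanger that imports methionine and other large neutral amino acids, rose by 1.41 ± 0.19 and 0.95 ± 0.13 (adjusted p = 5.7e-05 and 8.3e-05). Slc7a5 stood at 136 ± 31.5 and 106 ± 11.2 CPM in moderate and enriched wild type and at 286 ± 115 and 355 ± 76.9 CPM in the mutants. Slc7a8, another light chain, fell by 0.55 ± 0.15 (adjusted p = 0.0110). None of these lists had a gene past the test in either diet comparison or in the interaction.

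Other sets of genes, known to respond to conditions of the cell, are given beside the members. Of 12 genes of the amino acid response led by ATF4, 11 rose averaged over the diets and 0 fell. Of 12 hypoxia genes 12 rose, where 17.4% of all tested genes rose and 18.5% fell. Both lists were chosen with earlier results of these data known, so these counts are not an independent test. The amino acid response genes summed to 996 to 1194 CPM in wild type and to 1798 to 2118 CPM in 7 mutant libraries, but to 1177 CPM, inside the wild type range, in moderate mutant replicate 3. Mat2a, Mat2b, Cbs and Cth were inside the wild type range in that library too, whereas its Ahcyl1, at 244 CPM, was above that range but the lowest of the mutants. Other members did not follow this split: Ahcyl2 and Gnmt were inside the wild type range in 5 of 8 mutant libraries and Ahcy in 3, and Mat2b was also inside it in enriched mutant replicate 4, where the amino acid sum was 1798 CPM. The hypoxia genes summed to 4355 to 4859 CPM in moderate and to 5296 to 6724 CPM in enriched wild type. Between these diets 4 of the 12 were higher without overlap (1.47% of all genes), and 0 passed the test. All mutant libraries were above both ranges, moderate mutant replicate 3 being the lowest at 7494 CPM. The 2 libraries with the least Mat2a, enriched mutant replicates 1 and 2, had the highest amino acid response sums, 2093 and 2118 CPM. The same 2 libraries also had the lowest neural progenitor sums of the series, 874.5 and 910.9 CPM. Their erythroid sums, 3551 and 3481 CPM, were the highest of the mutants. The part of the amino acid or hypoxia response, or of cell content, in the members' levels was not tested.

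**Figure D5:**
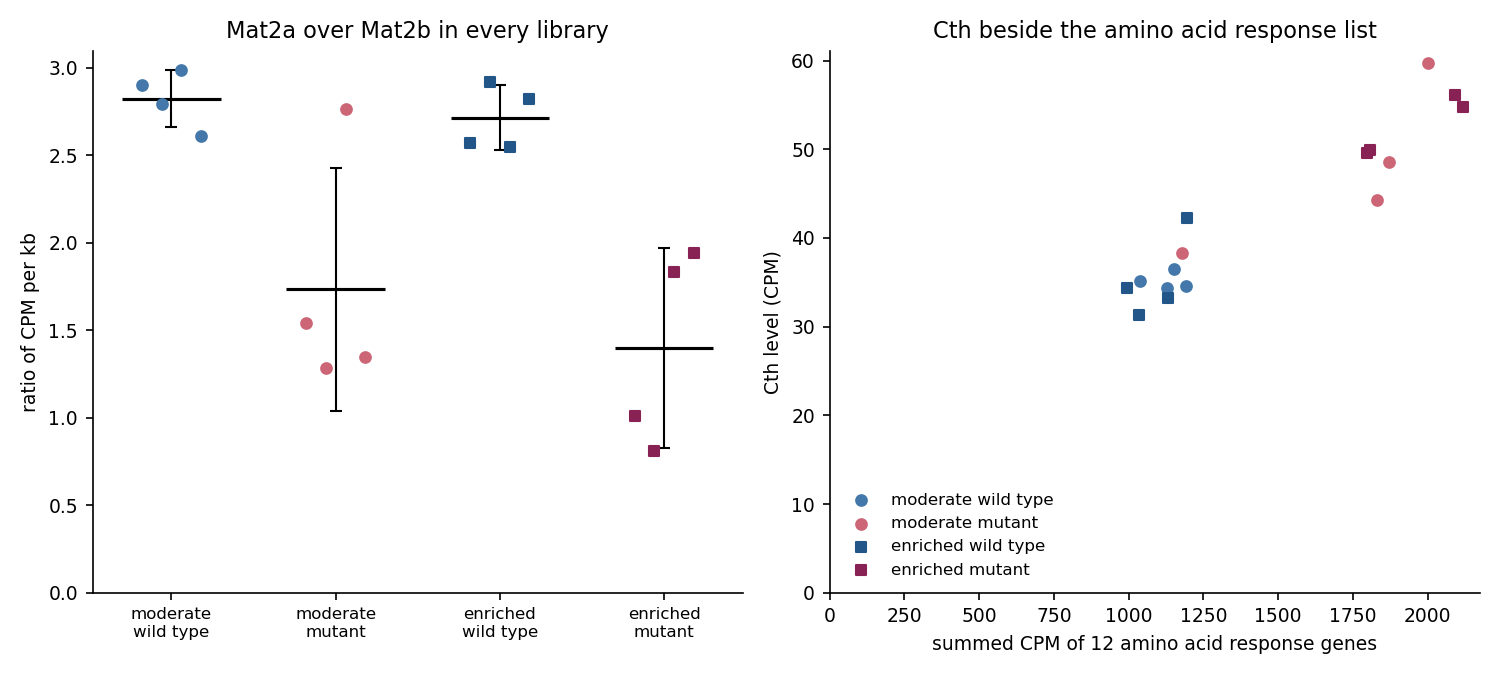
Left, the ratio of Mat2a to Mat2b, each in CPM per kilobase, by library, with the group mean and SD (n = 4). Right, Cth in CPM against the summed CPM of the 12 amino acid response genes, by library. Moderate mutant replicate 3 has a ratio of 2.76 and a sum of 1177 CPM, both among the wild type libraries, while the other mutant libraries have ratios of 1.94 or less and sums of 1798 CPM or more.

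Markers of other cells also varied. Their calls are given averaged over the diets, where 35.8% of all tested genes passed, 17.4% higher and 18.5% lower. Erythroid genes summed to 1477 to 3746 CPM in wild type, apart from 6368 CPM in moderate wild type replicate 2. In mutant libraries they summed to 705 to 3551 CPM. Of 8 tested, 3 fell averaged over the diets, with Hba-a1 at 0 throughout. Yolk sac and visceral endoderm genes summed to 14.4 to 34.4 CPM in wild type and 8.70 to 40.6 CPM in mutants, apart from 139.6 CPM in enriched mutant replicate 4, and none of 10 passed. Of the 4 endothelial markers 2 rose and 0 fell, with sums of 231 to 282 CPM in wild type and 252 to 311 CPM in mutants, and 1 of the 6 neural progenitor genes rose and 0 fell. The part of these cells in the results was not tested. Enriched mutant replicate 3 was the library rich in Prl8a2. Without it and the other 2 that stood apart, the enriched differences of Ahcyl1, Cbs, Cth and Mat2a were 0.46 ± 0.06, 1.04 ± 0.23, 0.63 ± 0.12 and -0.97 ± 0.20, all past the test.

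Genes with the most similar patterns were found as those with the smallest root mean square difference of centred log2 CPM over the 16 libraries, among 11886 genes. For Ahcyl1 these were Zdhhc20 (0.05), Arhgap12 (0.05) and Ppm1b (0.06), where the spread of Ahcyl1 itself about its mean was 0.18. For Cth they were Ccdc115 (0.09), Map2k1 (0.09) and Cryz (0.10), against 0.30 for Cth itself, and for Cbs Radil (0.18), Serhl (0.18) and Acot13 (0.21), against 0.49. The difference for Cbs is the largest of the 3 at a depth of 43 counts in its lowest library.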

How the data were processed

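RNA-seq counts of 16 embryonic head libraries were analysed. Libraries were made with the Illumina TruSeq RNA kit v2, per the labels' protocols, which does not mark strand. The submitters' processing notes name FastQC 0.11.5, TopHat2 2.1.1, SAMtools 1.8, HTSeq 0.9.1, DESeq2 1.22.2 and the build mm10. The sources used here do not give the annotation, overlap mode or strand setting. The deposited values are whole-number counts per gene, not normalized by the authors. The 5 summary lines of each file were left out of library sizes: reads outside genes were 13.7% to 17.0% of assigned, ambiguous and outside reads together, ambiguous reads 1.20% to 1.39%, and multiple alignments 77.2 to 94.9 per 100 assigned reads.

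The main test was edgeR 4.0.16 (R 4.3.3), quasi-likelihood, on genes counted 10 times or more in 4 or more libraries, TMM scaling, with 1 coefficient per group and labelled sex as a covariate, fitted to all 16 libraries. Labelled sex was unequal between the groups. With sex taken from counts instead, the Ahcy call on the enriched diet was lost and no other member call changed. Benjamini-Hochberg adjustment ran over all 14514 genes tested, at a threshold of 0.05. CPM are scaled by TMM. Fold changes are log2, mutant over wild type or enriched over moderate diet, ± standard error. No 2 libraries were identical. Alternatives were median-of-ratios scaling, DESeq2 1.42.0, limma-voom 3.58.1, no filter, a filter of 1 CPM in 4 libraries, no sex covariate, sex from counts, the replicate number as a block, only the groups compared, a threshold of 0.1, each library left out, and 2 sets of 3 libraries left out. Adding the Ahcy and Gm4737 counts was chosen after seeing the data. The fit was checked on simulated counts. Precision is limited by 4 libraries a group and, for Cbs, Gnmt and Bhmt, by counts.

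The members and lists were chosen with earlier results of these data known. Named genes were the 10 members, up to 3 genes per neighbouring list with the smallest p averaged over the diets among those past the threshold, the 3 most similar genes for the 3 members with the smallest p (a mean of at least 1 CPM, prior count 2, without sex-linked or predicted genes), and Ift88. Gene positions and transcript lengths are from GENCODE vM21 on GRCm38.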

Additional observations from a re-analysis of the deposited data

Results flagged for a closer look

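Of 32 sets of 4 libraries (8 members in 4 groups), 1 held a library far from the others: enriched wild type replicate 2 had 55.9 CPM of Ahcyl2, and the other 3 libraries of that group had 46.2 to 47.5 CPM. Its gap to the nearest library was 0.870 of the range of the group, above the 95% critical value of Dixon's test. Chance gives about 1 such library in 20 sets.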

How the results depend on the processing

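Of the results on the members, the enriched and averaged calls on Ahcyl1, Cbs and Cth passed in every alternative run. The number of members past the threshold on the moderate diet, 2 in the main analysis, was 0 without the 3 libraries of contradicted sex label and 0 with only the groups compared, and 0 to 3 with single libraries left out (3 without moderate mutant replicate 3). On the enriched diet it was 5, and 3 to 6 with single libraries left out. Averaged over the diets it was 5, and 3 without the libraries of contradicted sex label. In each diet comparison and the interaction it was 0 in every alternative. The cause of these changes was not tested, beyond there being fewer libraries. Among all genes, the 1106 calls on the moderate diet became 538 to 2107 with single libraries left out (2107 without moderate mutant replicate 3), 105 without the libraries of contradicted sex label, 719 with only the groups compared and 1906 at an adjusted p of 0.1. The 5202 averaged calls became 2964 without the libraries of contradicted sex label, and diet in mutants had 1 call without enriched mutant replicate 1.

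Values near 0 changed sign. Ahcy on the moderate diet was 0.048 with Gm4737 added. Gnmt on the moderate diet was -0.019 by limma-voom and -0.57 without the libraries of contradicted sex label, where it was -0.12 averaged over the diets. For diet in wild type, Mat2a was -0.00176 with the filter of 1 CPM, -0.051 with no sex covariate, -0.029 with sex from counts, -0.024 without the libraries of contradicted sex label, -0.097 without the 3 that stand apart and -0.070 with only the groups compared. Mat2b was -0.00743 with sex from counts and -0.019 with only the groups compared. Ahcyl2 was 0.034, 0.019 and 0.025 without the libraries of contradicted sex label, without those that stand apart and with only the groups compared. With no sex covariate Cth was 0.00502 and Gnmt 0.057, and without the libraries of contradicted sex label Gnmt was 0.023. For diet in mutants and the interaction, Mat2b was 0.081 and 0.054 without the libraries of contradicted sex label, and Gnmt -0.26 and -0.10 without those that stand apart. With single libraries left out, Ahcy ranged from -0.11 to 0.030 and Gnmt from -0.17 to 0.26 on the moderate diet. For diet in wild type the ranges were -0.070 to 0.072 for Mat2a, -0.015 to 0.11 for Mat2b, -0.10 to 0.022 for Ahcyl2, -0.31 to 0.15 for Cbs, -0.11 to 0.048 for Cth and -0.39 to 0.16 for Gnmt. For diet in mutants they were -0.12 to 0.045 for Mat2b and -0.12 to 0.50 for Gnmt, and for the interaction -0.16 to 0.032 for Mat2b. None of these values passed the test. Of 540 values of the 20 named genes of the neighbouring lists under the alternatives, 504 kept their call, 36 lost it and 0 changed sign.

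The replicate numbers do not pair the libraries: over 24 same-numbered pairs the correlation of deviations ranged from -0.29 to 0.51, with 8 over 0.1, and in 6 of 24 cases a library correlated best with its own number. With the replicate number as a block, 3 members passed on the moderate diet (Cbs added, adjusted p = 0.0445), 6 on the enriched diet (Ahcyl2 added, adjusted p = 0.0499) and 6 averaged (Ahcy added, adjusted p = 0.0155), and the calls over all genes were 1453, 4979 and 5645. Depth limits Gnmt, Bhmt and Mat1a, whose counts per library were at most 13.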
